A study of Mus musculus with 56 samples.

Results

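Messenger RNA levels of the necroptosis effector Mlkl, its partners Ripk1, Ripk3 and Casp8, the death receptors Fas, Tnfrsf1a, Tnfrsf10b and Tnfrsf12a, and the pyroptosis genes Casp4 and Gsdmd were followed in mouse liver after dosing with LNA gapmers. An LNA gapmer is a short antisense oligonucleotide with locked nucleic acid bases at both ends and a DNA gap that recruits RNase H to the bound transcript. The 10 genes were chosen by name, with earlier results of these data known, and their differences from vehicle are given here as descriptions. Of the 45101 probe sets on the array, 11 were annotated to 1 of these symbols alone and covered 9 of the 10 genes, among 18194 genes so named in all. Tnfrsf10b and Tnfrsf12a each had 2 probe sets, and Ripk1 had none under this rule and was not analysed here.

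Livers came from 56 male CD-1 mice, 6 to 8 weeks old when dosing began, in 14 groups, with 1 array per mouse. Every mouse received a subcutaneous injection in Dulbecco's phosphate buffered saline (DPBS), with no agent in the vehicle groups and with 25 mg/kg of the non-toxic sequence NTS-1, the toxic sequence TS-2 or the severely toxic sequence HTS-3 in the others. After a single dose the vehicle groups held 3 mice at each of 8, 16 and 72 h, the NTS-1 groups 3, 4 and 3 mice, the TS-2 groups 4, 3 and 4 mice, and the HTS-3 groups 3 mice at 8 h and 4 at 16 h. The mice given HTS-3 and meant for 72 h had died or been killed moribund from 48 h on. The 2-week study gave doses on days 1, 4, 8 and 11 and took livers on day 14, from 10 mice on vehicle, 4 on NTS-1 and 5 on TS-2. Per the labels, the 3 or 4 livers used at each single-dose time were those with the highest scores for minor hepatic hypertrophy among 10 dosed mice. The group means therefore describe selected livers, and the RNA target of each gapmer is not stated in the labels. The HTS-3 mouse 3 of 8 h has 16 h in its description and 8 h in its title, and was kept at 8 h, with values without it given where it matters.

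Necroptosis is a lytic form of cell death in which the kinase Ripk3 phosphorylates the pseudokinase Mlkl, which then oligomerises and breaches the plasma membrane. Casp8, engaged by the receptors Fas, Tnfrsf1a (the TNF receptor) and Tnfrsf10b (the mouse TRAIL receptor) through death domain adaptors, can start apoptosis and also cleaves the Ripk kinases, which restrains necroptosis. Casp4 (caspase-11) senses bacterial lipopolysaccharide in the cytosol and cleaves Gsdmd, whose N-terminal part forms the pores of pyroptosis. Tnfrsf12a (Fn14) has no death domain, binds the cytokine TWEAK and is induced in injured liver. Hepatocytes are known for a strong response to Fas and for little or no Ripk3, and Mlkl, Zbp1 and Casp4 are known to be inducible by interferons.

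The values are RMA intensities, on which the level of 1 probe set cannot be set against that of another. An intensity of 32 was taken as the limit under which a probe set is called dim. The single-dose arrays share a floor of 4.56, at which 44.1% to 47.3% of their probe sets lie, while the 2-week arrays have lowest values of 6.10 to 6.92, so the sets were fitted apart and no level is compared between them. A difference was called at a limma Benjamini-Hochberg adjusted p under 0.05 over all genes of its comparison, 18194 after a single dose and 14454 at 2 weeks. After a single dose these include genes at the floor in both groups, which can neither be called nor lie apart. Shares of all genes are therefore smaller there than among genes above the floor. Hepatocyte markers such as Alb (78839 to 90147 in the vehicle mice of 8 h) were high throughout. Vehicle mouse 1 of 16 h stood apart, with a summed intensity of 10 neutrophil markers of 28622 against 256 and 507 in the other vehicle mice of that time. In whole liver, fewer cells of a type and less RNA per cell cannot be told apart.

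By RefSeq's GRCm38.p6 annotation, Mlkl lies at chr8:111311255-111338479, its activator Ripk3 at chr14:55784995-55788857 and the regulator Casp8 at chr1:58795233-58847503. The receptors lie at chr19:34290647-34327775 (Fas), chr6:125349723-125362483 (Tnfrsf1a), chr14:69767472-69784411 (Tnfrsf10b) and chr17:23675445-23677449 (Tnfrsf12a). Casp4 lies at chr9:5308849-5336791 and Gsdmd at chr15:75862144-75867408. These are whole-gene bounds, and the exons the probe sets target were not analysed here.

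Promoters are shown for Casp4, which like Mlkl was highest 8 h after NTS-1, and for Tnfrsf1a and Tnfrsf12a, which had some of the largest differences at 2 weeks. RefSeq's table on GRCm38.p6 held promoter entries for 8 of the 10 genes, and Gsdmd and Tnfrsf10b were not among them. The 250 bases before the annotated start are printed 5′ to 3′ on the strand of the gene, for Casp4 (chr9:5308599-5308848, plus strand), Tnfrsf1a (chr6:125349473-125349722, plus strand) and Tnfrsf12a (chr17:23677450-23677699, minus strand). Capitals mark a match, on either strand, to the core of the interferon-stimulated response element, the GAS element TTCNNNGAA, the NF-kappaB consensus or the p53 half-site.
Casp4: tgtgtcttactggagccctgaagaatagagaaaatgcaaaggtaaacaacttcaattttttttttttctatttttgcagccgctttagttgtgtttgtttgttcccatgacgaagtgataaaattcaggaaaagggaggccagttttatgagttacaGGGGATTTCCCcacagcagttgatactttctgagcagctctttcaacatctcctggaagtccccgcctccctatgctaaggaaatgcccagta
Tnfrsf1a: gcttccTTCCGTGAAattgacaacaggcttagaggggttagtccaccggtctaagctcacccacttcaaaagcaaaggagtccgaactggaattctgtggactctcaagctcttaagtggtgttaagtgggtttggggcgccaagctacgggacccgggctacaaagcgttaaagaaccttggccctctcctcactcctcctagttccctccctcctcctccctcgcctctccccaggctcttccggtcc
Tnfrsf12a: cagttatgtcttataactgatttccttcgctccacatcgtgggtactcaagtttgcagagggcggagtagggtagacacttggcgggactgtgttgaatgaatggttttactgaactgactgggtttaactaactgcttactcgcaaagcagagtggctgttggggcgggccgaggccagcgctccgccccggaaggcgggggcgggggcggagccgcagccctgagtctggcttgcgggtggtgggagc
The capitals of Casp4 are 2 overlapping NF-kappaB matches, from 93 to 83 bases before the start, and those of Tnfrsf1a are a GAS match from 244 to 236 bases before it. No searched motif matched in the entry for Tnfrsf12a. The entry for Mlkl, which lies within the bounds of its longer gene model and is not printed, held no match either. Of 32851 mouse promoters of the same length, 3.9% held the NF-kappaB consensus, 7.02% the GAS element, 2.98% the interferon response element core and 7.13% the p53 half-site. Of 12 interferon-stimulated genes with an entry, 6 held the interferon response element core. These are matches of letters, and nothing is drawn from them about binding.

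Mlkl was highest in mice killed 8 h after a single dose of NTS-1, the sequence labelled non-toxic. Its intensity was 400, 439 and 269 in the NTS-1 mice and 61.0, 115 and 113 in the vehicle mice of 8 h. Every NTS-1 mouse lay above every vehicle mouse, as for 3.06% of all genes, and the mean was 3.91-fold higher, a log2 difference of 1.97 with a standard error of 0.33. In this comparison 0.61% of all genes were called, and Mlkl was the 1 member among them. The call was lost when the 2 groups were fitted alone (adjusted p = 0.539) and was kept in the other 14 of 15 alternatives. At 16 h the NTS-1 mice had 117, 217, 188 and 133 and the vehicle mice 177, 145 and 117, which overlap. At 72 h the NTS-1 mice had 115, 115 and 117 against 61.5, 97.6 and 107, all above vehicle as for 1.57% of all genes. The lowest and highest of these NTS-1 values, 114.52 and 117.03, recur on 6 and 4 of the 37 single-dose arrays. The log2 difference of 0.42 was not called.

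TS-2 did not show this early level of Mlkl. At 8 h the 4 TS-2 mice had 101, 117, 115 and 95.6, with a range that overlaps vehicle and lies below every NTS-1 mouse, as for 2.01% of all genes. HTS-3 gave 268, 125 and 126 at 8 h, so that mouse 1 came level with the lowest NTS-1 mouse and the other 2 lay just above the highest vehicle mouse, where 3.61% of all genes were higher without overlap. The log2 difference from vehicle was 0.81 with a standard error of 0.33, was not called, and was 0.44 without mouse 1 and 0.99 without mouse 3. At 16 h the HTS-3 mice had 115, 71.6, 60.4 and 115, all below the vehicle mice, as for 5.37% of all genes. The gap ran only from 114.52 to 117.03, values that Mlkl had on 6 and 4 of the 37 single-dose arrays. The log2 difference of -0.73 was not called. Ordered by mean, the NTS-1 mice of 8 h stood above the next group, HTS-3 at 8 h, by more than the larger SD of the pair. No later pair of neighbours among the 11 single-dose groups was separated by that much.

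**Figure D1:**
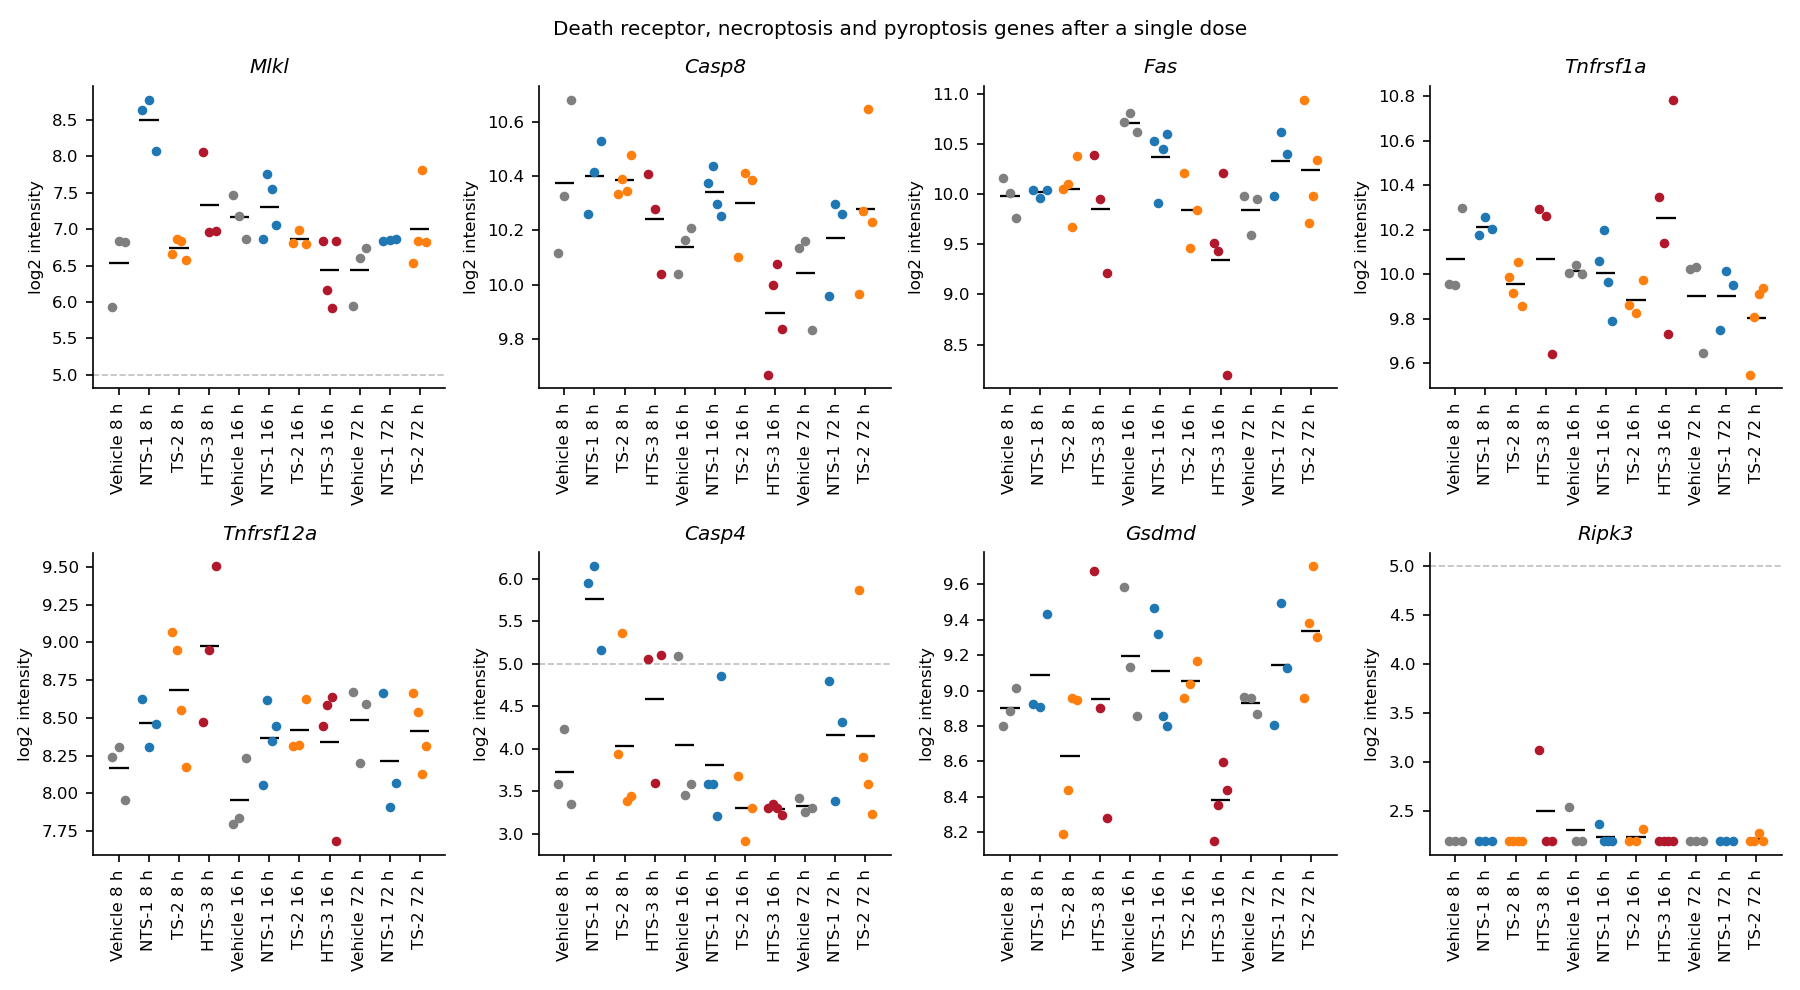
Each panel shows the log2 intensity of 1 gene in the 37 single-dose mice, 1 point per mouse, coloured by agent and ordered by time, with a black bar at the group mean; a dashed line, drawn for genes that come near it, marks an intensity of 32. Mlkl and Casp4 stand highest in the NTS-1 mice of 8 h, Fas is lowest in the HTS-3 mice of 16 h, and Ripk3 lies at or near the floor.

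The mice with high Mlkl were also those with high interferon-stimulated genes. The summed intensity of 13 such genes was 41967, 58938 and 38098 in the NTS-1 mice of 8 h and 2197 to 2861 in their vehicle mice. HTS-3 mouse 1 of 8 h had 14636 against 2920 and 2654 in the other HTS-3 mice of that time. TS-2 mouse 3 of 72 h, with the highest Mlkl of its group at 225 against 92.5, 115 and 113, also had the highest sum of its group, 7261. At 16 h the NTS-1 mice still had sums of 12866 to 22316 while their Mlkl overlapped vehicle. By Pearson correlation of log2 intensity over the 37 single-dose arrays, the genes most like Mlkl among 9133 were Gbp7 (0.86), Gbp3 (0.84), Ifit3 (0.84), Cxcl10 (0.83) and Igtp (0.83), all known as interferon-inducible. Their correlations with Mlkl over the 19 arrays of the 2-week study were 0.48, 0.68, 0.56, 0.52 and 0.65. The NTS-1 mice of 8 h lie at the high end of both measures, so these correlations describe the groups as much as single mice. For deviations from group means over the 37 arrays, the same genes had correlations with Mlkl of 0.73, 0.63, 0.71, 0.61 and 0.73. None of them was then among the 5 genes most like Mlkl, and by Spearman correlation only Gbp3 was.

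**Figure D2:**
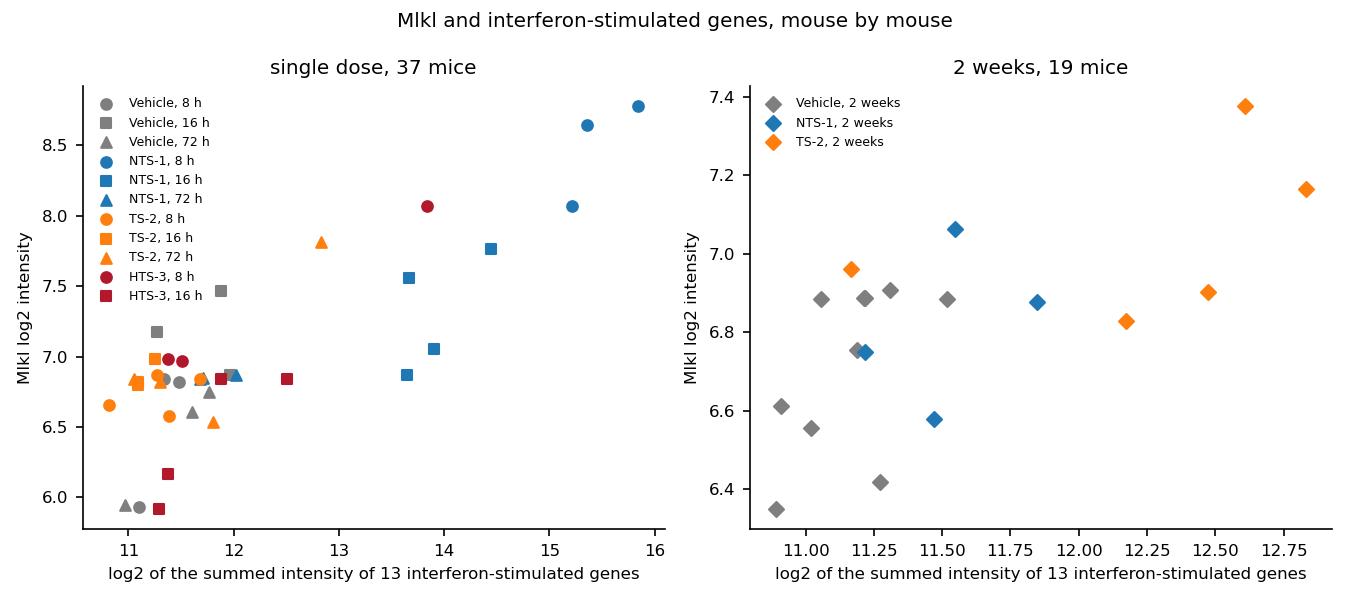
Each point is 1 mouse, with the log2 of the summed intensity of 13 interferon-stimulated genes on the horizontal axis and the log2 intensity of Mlkl on the vertical axis, for the single-dose study on the left and the 2-week study on the right; colour gives the agent and shape the time. The NTS-1 mice of 8 h lie at the upper right, and HTS-3 mouse 1 of 8 h and TS-2 mouse 3 of 72 h lie between them and the vehicle mice.

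Ripk3, the kinase that activates Mlkl, was at the floor of 4.56 on 32 of the 37 single-dose arrays. The highest single-dose value was 8.69, in HTS-3 mouse 1 of 8 h, and no single-dose array reached 32, so no fold is given. At 2 weeks Ripk3 lay near the limit, from 25.2 to 44.4 in the vehicle mice, 27.5 to 40.5 in the NTS-1 mice and 29.9 to 58.6 in the TS-2 mice, which overlap. The 95% interval of the TS-2 log2 difference ran from -0.24 to 0.42. Tnfrsf10b was dim on every array, with both probe sets at the floor in all 37 single-dose mice, and at most 31.7 in the vehicle mice of the 2-week study.

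Casp8, the initiator caspase of the death receptors, gave no call against vehicle after a single dose. At 8 h the vehicle mice had 1111, 1284 and 1642, the NTS-1 mice 1226, 1367 and 1478 and the HTS-3 mice 1360, 1243 and 1052. At 16 h the HTS-3 mice had 814, 1023, 1079 and 916 and the vehicle mice 1054, 1147 and 1185, with overlapping ranges.

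Casp4, the lipopolysaccharide-sensing caspase, was dim in most single-dose mice. After NTS-1 at 8 h its intensity was 62.2, 71.0 and 36.0, against 12.0, 18.8 and 10.2 in the vehicle mice. The groups did not overlap, as for 3.06% of all genes higher after NTS-1. Since all 3 vehicle mice were dim, NTS-1 was at least 1.69-fold higher when vehicle is set to 32. The fitted log2 difference was 2.04 with a standard error of 0.59 and was not called in this comparison or in any of 15 alternatives. The other single-dose values at 32 or more were those of vehicle mouse 1 of 16 h (34.1), TS-2 mouse 2 of 8 h (41.0), TS-2 mouse 1 of 72 h (58.7) and HTS-3 mice 1 and 3 of 8 h (33.4 and 34.4). Genes most like Casp4 over the 37 arrays were Evi2a (0.81), Ctla2b (0.81), Nmi (0.78), Clec7a (0.78) and AI662270 (0.76), with correlations of 0.35, 0.63, -0.12, 0.37 and 0.39 over the 2-week arrays.

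Other genes of these pathways were called in the NTS-1 mice of 8 h, 1 each in 4 of 6 lists. The lists and their members were chosen with earlier results known, and the background was 0.506% of all genes called higher. Zbp1, a nucleic acid sensor that can engage Ripk3, rose 13.7-fold, from 105 to 118 in vehicle to 1019 to 1927 (log2 difference 3.78, standard error 0.65, adjusted p = 0.00134). Tnfsf10, the TRAIL ligand, rose at least 5.92-fold, to 137 to 363, from dim values of 18.0 to 29.4 in vehicle. Rnf31, a ubiquitin ligase subunit of the TNF receptor complex, rose 3.60-fold and Casp1, the inflammasome caspase, 2.84-fold. No member of the list of other TNF superfamily receptors, with 8 measured, or of the mitochondrial and executioner list, with 13 measured, was called.

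Of 13 interferon-stimulated genes 12 rose in the same mice, with a median log2 difference of 4.46 against 0.00 over all genes. Ifit1 rose at least 141-fold, Usp18 66.7-fold, Ifit3 65.9-fold and Ifit2 51.8-fold. At 16 h 8 of the 13 rose after NTS-1, with a median of 2.74, while 0 members were called there, where 0.148% of genes were called. Markers of macrophages moved alongside at 8 h: the summed intensity of 14 of them was 24743 to 38904 in the NTS-1 mice and 20000 to 21283 in the vehicle mice. Fcgr1, an Fc receptor of macrophages, was the 1 marker of the 14 called higher. Itgam lay at the floor, and the defining T cell markers Cd3e, Cd3d and Cd3g reached at most 5.42 in these mice. The 11 measured lymphocyte markers had sums of 233 to 354 after NTS-1 and 137 to 272 in vehicle, and 1 of them, Gzmb, a protease of cytotoxic lymphocytes, was called higher at dim values in both groups. The macrophage sum at 8 h was also 29038 to 47156 after HTS-3 and 21897 to 30205 after TS-2, where Mlkl was not called. The part of these cells in the values of Mlkl and Casp4 was not tested.

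Fas, the receptor to which hepatocytes respond strongly, was lowest 16 h after HTS-3. Its mean log2 intensity lay 0.50 below the next group, vehicle at 72 h, less than the larger SD of the pair, 0.84. The HTS-3 mice had 729, 693, 1184 and 294 and the vehicle mice of 16 h 1685, 1791 and 1570. All 4 HTS-3 mice lay below all vehicle mice, as for 5.37% of all genes. The mean was 2.59-fold lower (log2 difference -1.37, standard error 0.33), a call lost only when the groups were fitted alone (adjusted p = 0.378) among 18 alternatives. TS-2 at 16 h also lay below vehicle in every mouse, with 1187, 708 and 921, where 2.46% of all genes did so, but its log2 difference of -0.87 was not called. NTS-1 had 1483, 964, 1402 and 1554 at that time. At 8 h the ranges of all 4 agents overlapped, with 868 to 1144 in vehicle and 594 to 1345 after HTS-3, where the lowest value is that of the mouse with conflicting labels. The vehicle mice themselves were higher at 16 h than at 8 h (1144, 1034 and 868) or 72 h (1011, 772 and 990). The log2 difference between 16 h and 8 h was 0.74, with a 95% interval from 0.01 to 1.46, and was not called.

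Gsdmd, the pyroptosis pore, was also lower 16 h after HTS-3. The HTS-3 mice had 284, 327, 386 and 346 and the vehicle mice 769, 562 and 464, lower without overlap as for 5.37% of all genes. The mean was 1.75-fold lower (log2 difference -0.81, standard error 0.25). The call was held in 9 of 18 alternatives. It was lost without vehicle mouse 1 of 16 h, the liver with high neutrophil markers, where the log2 difference was -0.61 (adjusted p = 0.293), and also without vehicle mouse 2 or HTS-3 mouse 1, 2 or 4. It was lost too with the replicate number as a block (adjusted p = 0.0840) and with array weights (adjusted p = 0.0656). Each probe set on its own (adjusted p = 0.0625) and the groups fitted alone (adjusted p = 0.228) also ended the call. Fas and Gsdmd were the 2 members called in a comparison in which 7.35% of all genes were called. That share is larger among brighter genes. With genes limited to those at 32 or more on at least 3 single-dose arrays, 9133 besides Gsdmd, 1540 were called. The log2 difference of Fas without vehicle mouse 1 was -1.37, as with it.

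Among the other pathway genes, HTS-3 at 16 h gave calls in both directions, where 7.35% of all genes were called in either direction. Nothing is read from the number called in a pathway list. Map3k7, the kinase TAK1 that relays TNF receptor signals, fell at least 4.70-fold, from 129 to 223 in vehicle to 12.7 to 65.5, with 3 of 4 HTS-3 mice dim. Nek7, an NLRP3 activator, fell 2.01-fold, Bcl2l1, the survival factor Bcl-xL, 1.47-fold and the adaptor Tradd 1.23-fold. Xiap, an inhibitor of caspases, rose 1.38-fold. Ltb, a ligand of the lymphotoxin receptor, was called lower at dim values in all mice of both groups. Of 9 p53 targets 1 rose, Cdkn1a, a cell cycle inhibitor, 3.53-fold, and Fas, which is also known as a p53 target, was lower in the same mice. Sinusoidal endothelial markers moved with these calls, with 4 of 9 lower and a summed intensity of 6565 to 12051 against 12469 to 14934 in vehicle. Macrophage markers did so as well, with 4 of 14 lower and sums of 15883 to 24257 against 24679, 26394 and 61849, and their part in the values of Fas and Gsdmd was not tested.

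Tnfrsf1a and Tnfrsf12a, the receptors for TNF and TWEAK, gave no single-dose call. Tnfrsf1a ranged from 749 to 1763 over all 37 mice, with the highest value in HTS-3 mouse 4 of 16 h. Tnfrsf12a was highest in the HTS-3 mice of 8 h, with 355, 494 and 727 against 302, 316 and 249 in vehicle. The groups did not overlap, as for 3.61% of all genes higher after HTS-3. The mean log2 intensity lay 0.29 above the next group, TS-2 at 8 h, less than the larger SD of the pair, 0.52. The log2 difference of Tnfrsf12a from vehicle, 0.81 with a standard error of 0.26, was not called, and the second probe set gave 0.73. The value was 0.54 without mouse 3, the mouse with conflicting labels and the highest Tnfrsf12a. It was 1.06 and called (adjusted p = 0.0469) without mouse 1. Here 0.588% of all genes were called and no member was, though limma gave 3 members an unadjusted p under 0.05.

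**Figure D3:**
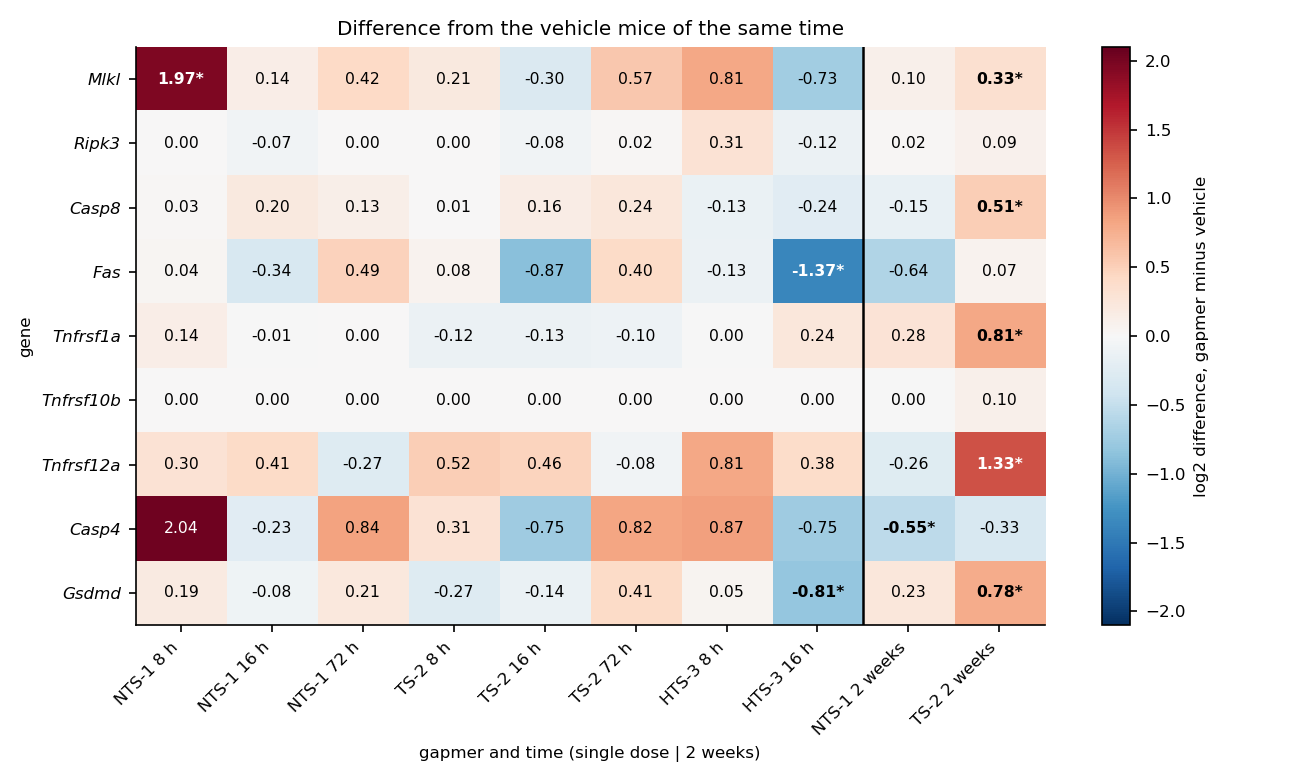
The grid gives the log2 difference of each gene (rows) between each gapmer group and the vehicle mice of its time (columns), with red for higher and blue for lower, and an asterisk where the limma adjusted p was under 0.05; the black line separates the single-dose and 2-week studies. Differences of Casp4 after a single dose, of Ripk3 after a single dose and of Tnfrsf10b in both studies rest on dim values.

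No member was called for TS-2 at 8, 16 or 72 h, where 0.044%, 0.0165% and 0.137% of all genes were called, and limma gave 1, 1 and 0 members an unadjusted p under 0.05. With array weights Fas was called at 16 h (log2 difference -0.84, adjusted p = 0.0224). None was called for NTS-1 at 72 h, where limma called 0 of 18194 genes and 793 had an unadjusted p under 0.05, no member among them. For NTS-1 at 16 h, too, 0 members had an unadjusted p under 0.05. Single mice still stood high at 72 h, such as TS-2 mouse 3 with a Mlkl of 225 and TS-2 mouse 1 with a Fas of 1968 against 837, 1013 and 1299 in its group. The sinusoidal endothelial sum of TS-2 mouse 3 was 2659 and the other mice of that group reached 12155.

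At 2 weeks most member calls were in the TS-2 mice. Of the 9 members 5 were higher after TS-2, Tnfrsf12a, Tnfrsf1a, Gsdmd, Casp8 and Mlkl, in a comparison in which 37.4% of all genes were called, 22.8% higher and 14.6% lower, so nothing is read from the count. The median log2 difference of the members was 0.33, against -0.01 over all genes.

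Tnfrsf12a differed most, by 2.52-fold. Its intensity was 252, 386, 296, 1448 and 1604 in TS-2 mice 1 to 5 and 184 to 292 in the vehicle mice, with a median of 231. Mice 4 and 5 stood far above all others, mice 2 and 3 just above the vehicle range and mouse 1 within it. The log2 difference was 1.33 with a standard error of 0.33, and 1.01 and 0.97 without mouse 4 or mouse 5. The second probe set gave 1801 and 2104 in these 2 mice, 344 to 519 in the other 3 and a log2 difference of 1.26. NTS-1 mice had 218, 172, 181 and 206.

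Tnfrsf1a was 1.75-fold higher, with 1145, 1623, 1519, 1985 and 3290 in TS-2 mice 1 to 5 against 846 to 1183 in vehicle. Mice 2 to 5 lay above every vehicle mouse and mouse 1 among them. Gsdmd was 1.72-fold higher, with 387, 951, 533, 891 and 1330 against 361 to 466, and again mouse 1 alone lay within the vehicle range. Casp8 was 1.42-fold higher and the most even of the 5, with 1030, 869, 944, 896 and 911, each above the highest of the vehicle values of 494 to 796, as for 7.8% of all genes. The log2 differences and standard errors were 0.81 and 0.16 for Tnfrsf1a, 0.78 and 0.20 for Gsdmd and 0.51 and 0.11 for Casp8. The calls of these 3 genes and of Tnfrsf12a held in all 26 alternatives.

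Mlkl was 1.26-fold higher, with 125, 120, 114, 144 and 166 after TS-2 and 81.5 to 120 in vehicle. Mice 1, 4 and 5 lay above the vehicle range. The log2 difference of 0.33, with a standard error of 0.12, was called in 20 of 26 alternatives. Leaving out TS-2 mouse 4 (adjusted p = 0.0767) or mouse 5 (adjusted p = 0.118) ended the call. It was lost too with a replicate block (adjusted p = 0.0591), and the value for vehicle mice 6 to 10 alone was 0.28 (adjusted p = 0.139). Quantile normalization (log2 difference 0.24, adjusted p = 0.0916) and array weights (0.24, adjusted p = 0.133) also ended the call. Fas was not called after TS-2, with 360, 458, 276, 495 and 759 against 244 to 530. Casp4 lay lower after TS-2, with 42.5, 53.3, 58.2, 51.0 and 65.4 against 51.9 to 83.1, a log2 difference of -0.33 that was not called, but was without vehicle mouse 6 (adjusted p = 0.0403), vehicle mouse 9 (0.0301) or TS-2 mouse 5 (0.0343).

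**Figure D4:**
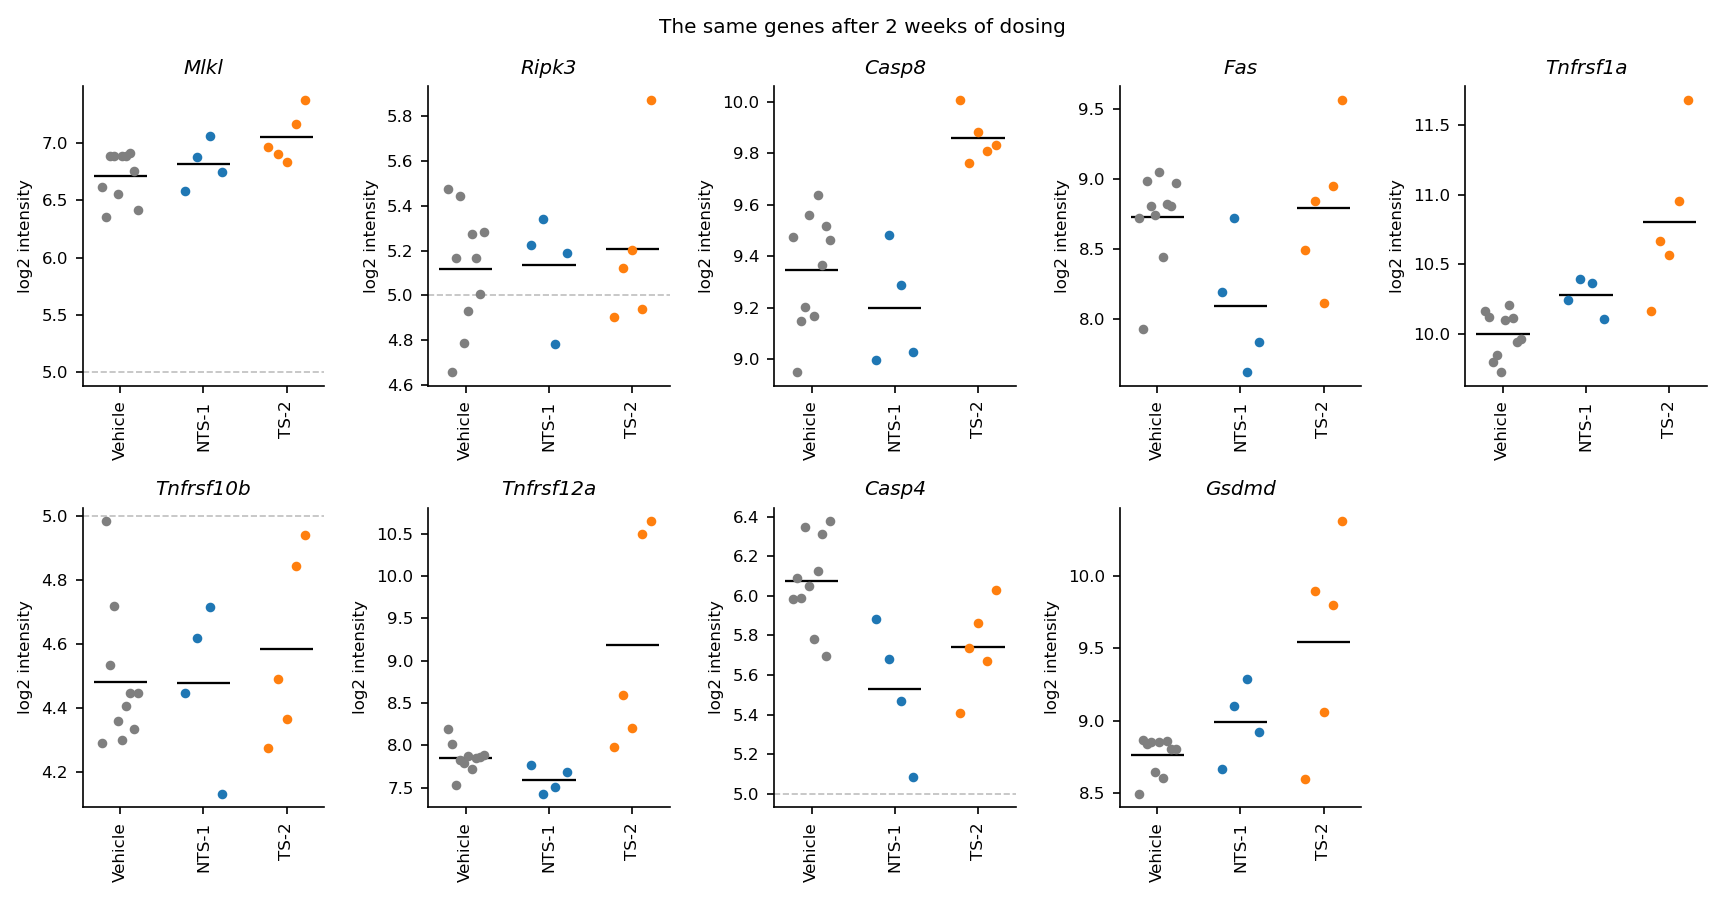
Each panel shows the log2 intensity of 1 gene in the 19 mice of the 2-week study, 1 point per mouse in replicate order, with a black bar at the group mean and, for genes that come near it, a dashed line at an intensity of 32. TS-2 mice 4 and 5 stand apart for Tnfrsf12a, Casp8 is even over the 5 TS-2 mice, and Casp4 and Fas lie low after NTS-1.

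After 2 weeks of NTS-1, Casp4 was called lower and Fas had lower values without a call. Casp4 was 1.46-fold lower, with 58.9, 51.2, 44.4 and 33.9 against 51.9 to 83.1 in vehicle, overlapping in 1 mouse, and a log2 difference of -0.55 with a standard error of 0.15. It was the 1 member called where 4.91% of all genes were called, 709 genes, a count that was 1 with vehicle mice 1 to 5 as the only controls, 709 with mice 6 to 10 and 0 with a replicate block. The call was held in 14 of 25 alternatives and was lost with a replicate block (adjusted p = 0.261), with vehicle mice 1 to 5 or 6 to 10 alone (adjusted p = 0.120 and 0.113), without NTS-1 mouse 2, 3 or 4 (adjusted p from 0.0636 to 0.147) and without vehicle mouse 3, 4, 5, 8 or 10. Fas had 291, 422, 196 and 228 against a vehicle median of 448, and its log2 difference of -0.64 was not called, but was without vehicle mouse 2 (-0.73, adjusted p = 0.0357). Mlkl had 95.7, 117, 134 and 108, within or near the vehicle range.

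The TS-2 mice differed widely among themselves. The summed intensity of 9 p53 targets was 3634, 10271, 4395, 19013 and 25786 in TS-2 mice 1 to 5 and 2122 to 2958 in vehicle. Mouse 1 was lowest, then mice 3, 2, 4 and 5, and Tnfrsf12a and Tnfrsf1a had that order too. The other 3 called members did not: Casp8 was highest in mouse 1, Mlkl was lowest in mouse 3, and Gsdmd was higher in mouse 2 than in mouse 4. Of the 9 p53 targets 8 rose, with a median log2 difference of 1.26. Cdkn1a rose 12.3-fold, Btg2 8.96-fold, Phlda3 3.95-fold and Trp53inp1 3.08-fold. Fas and Tnfrsf10b, known as p53 targets too, were not called in these mice, but Tnfrsf10b was dim in all of them. Its second probe set had 22.3 to 25.8 after TS-2 against 20.1 to 22.5 in vehicle, and nothing is read from such dim values.

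The interferon-stimulated genes were also higher, with 9 of 12 called and a median log2 difference of 0.88, led by Usp18 (9.31-fold) and Ifit1 (4.55-fold). Their sum was 2297 in TS-2 mouse 1, within the vehicle range of 1900 to 2929, and 4618 to 7284 in mice 2 to 5. Macrophage markers were uneven, with sums of 3209, 4759, 5700, 6011 and 22874 in mice 1 to 5 against 2460 to 9553 in vehicle. Cd14, Marco and Cd68 were called higher among 13 tested, a share near the 22.8% of all genes called higher. Without mouse 5 the log2 differences were 0.59 for Tnfrsf1a, 0.57 for Gsdmd and 0.97 for Tnfrsf12a, all still called. Sinusoidal endothelial markers were called lower in both gapmer groups, 7 of 9 after TS-2, where 14.6% of all genes were called lower, and 5 of 9 after NTS-1, where 4.91% were called. The NTS-1 count was 0 with vehicle mice 1 to 5 as the only controls, 3 with mice 6 to 10 and 0 with a replicate block. Their summed intensities were 1363 to 3621 after TS-2 and 2148 to 3103 after NTS-1, against 3374 to 5955 in vehicle. Of 10 stellate cell and cholangiocyte markers 2 were called higher after TS-2 (Col3a1 and Col1a1), with sums of 2761 to 6640 against 2345 to 3437. Of 9 hepatocyte markers 1 was called higher (Hnf4a) and 2 lower (G6pc and Apoa1), with sums of 134717 to 146459 against 138055 to 150586. Of 10 neutrophil markers 2 were called lower (Mpo and Camp), with sums of 481 to 770 against 473 to 609. None of 8 lymphocyte markers tested was called. The share of these cells in the differences of the members was not tested.

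Of the 6 pathway lists, the necroptosis regulators had the largest share of calls after 2 weeks of TS-2, with 7 of 9 higher and a median log2 difference of 0.43, where 22.8% of all genes were called higher. Zbp1 rose 3.35-fold, with 146, 433, 288, 545 and 760 in mice 1 to 5 against 75.6 to 196 in vehicle. Hsp90aa1, a chaperone of the Ripk kinases and Mlkl, rose 2.04-fold, the double-stranded RNA receptor Tlr3 1.84-fold and Chmp4b, an ESCRT-III subunit of membrane repair, 1.58-fold. Of 8 other receptors 3 rose, Tnfrsf14 1.95-fold, Tnfrsf1b, the other TNF receptor, 1.38-fold and the lymphotoxin receptor Ltbr 1.24-fold.

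In the receptor complexes 5 of 18 rose and 2 fell, shares near the 22.8% and 14.6% of all genes. Traf2, the adaptor that recruits ubiquitin ligases, fell 2.15-fold, with 138, 75.7, 111, 42.3 and 63.5 in mice 1 to 5 against 149 to 198 in vehicle. The ubiquitin editor Tnfaip3 (A20) rose 1.97-fold, and 2 subunits of the linear ubiquitin ligase rose, Sharpin 1.59-fold and Rnf31 1.54-fold. Of 12 genes of the mitochondrial arm 5 rose and none was called lower. Bcl2l1 rose 1.76-fold, Bcl2l11 (Bim) 1.75-fold, Bak1 1.68-fold and Mcl1 1.60-fold, a set that holds both pro-survival and pro-death factors. Of 10 inflammasome genes 2 fell, Gsdme 1.46-fold and Ninj1 1.22-fold, and none was called higher. Of 4 ligands 1 fell, Tnfsf10, 1.25-fold. NTS-1 at 2 weeks called none of the 61 tested genes of these 6 lists.

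**Figure D5:**
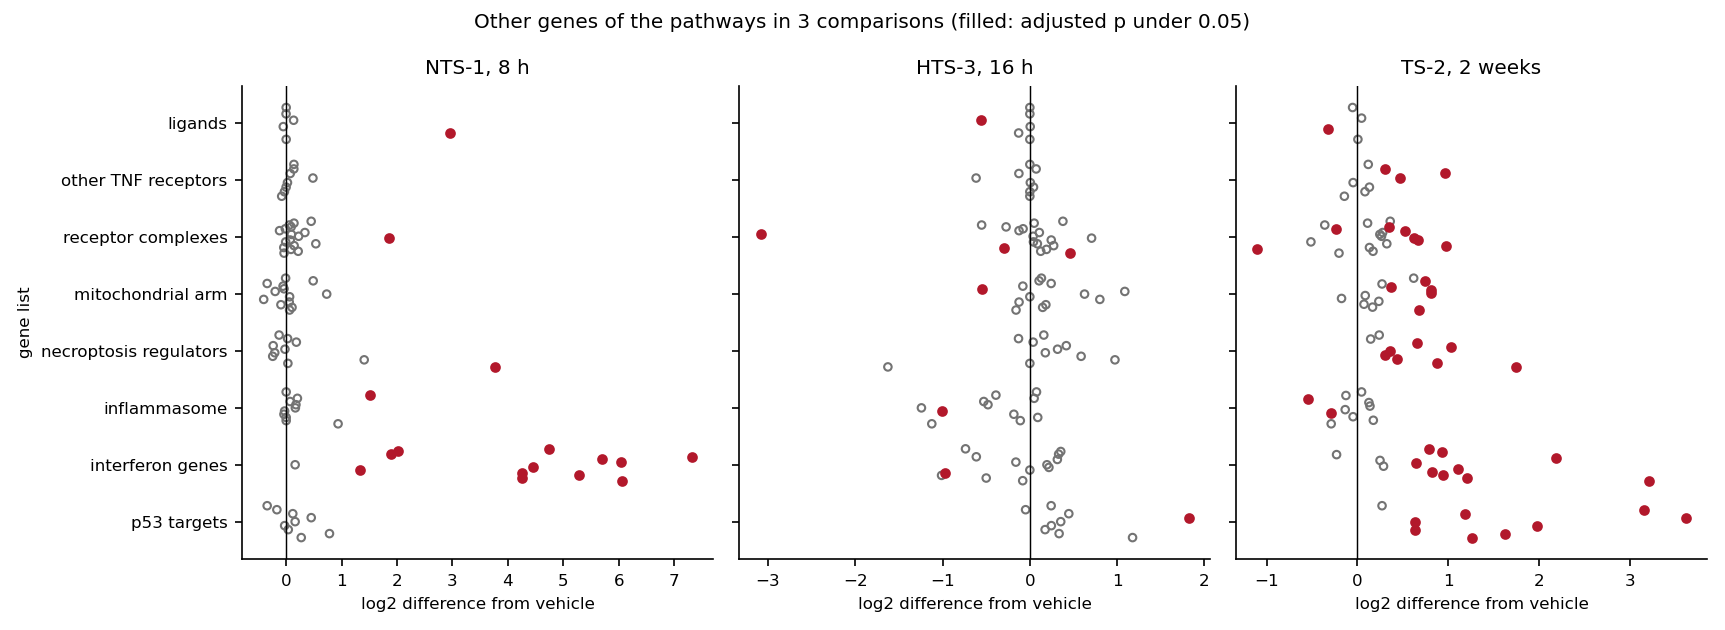
Each point is 1 gene of a list (rows), at its log2 difference between gapmer and vehicle, in the NTS-1 mice of 8 h, the HTS-3 mice of 16 h and the TS-2 mice of 2 weeks; filled red points passed the limma adjusted p threshold and open points did not. Interferon-stimulated genes stand to the right at 8 h after NTS-1, and p53 targets, interferon-stimulated genes and most necroptosis regulators stand to the right after 2 weeks of TS-2. The horizontal scales differ between panels.

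For the other called members, the nearest genes after a single dose often differed from the pattern at 2 weeks. For Gsdmd the closest over the 37 single-dose arrays were Adam10 (0.75), Atp6ap2 (0.72), Coro7 (0.72), Hnrnph3 (0.71) and Sil1 (0.69), of which Coro7 reached 0.82 over the 2-week arrays and Sil1 -0.05. For Tnfrsf1a they were Calcoco1 (0.83), Cd82 (0.81), Zyx (0.80), Lpcat3 (0.80) and Setd2 (0.80), and over the 2-week arrays Zyx had 0.91 and Setd2 0.88 while the other 3 lay between -0.28 and 0.10. The closest genes to Fas (Adck1, 0.75), Casp8 (Slc25a13, 0.77) and Tnfrsf12a (Jagn1, 0.81) had correlations of -0.46, -0.48 and -0.44 over the 2-week arrays. These arrays share groups and labelling, and no p is given.

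Gapmers were also compared with each other at matched doses and times, over 8 pairs of groups and 9 genes, with p-values adjusted over all genes of a pair. These tests use the arrays on which the genes were chosen. At 8 h Mlkl was 3.39-fold lower after TS-2 than after NTS-1 (log2 difference -1.76, 95% interval -2.40 to -1.12, adjusted p = 0.00204), where 0.506% of all genes were called. The call was lost when these groups were fitted alone (adjusted p = 0.0665). HTS-3 against NTS-1 at 8 h gave -1.16 for Mlkl (95% interval -1.84 to -0.48, adjusted p = 0.173), and the call was gained without HTS-3 mouse 1 (adjusted p = 0.0263). HTS-3 against TS-2 at 8 h gave 0.60 (95% interval -0.04 to 1.24), which leaves room for no difference and for a 2-fold one.

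At 16 h 3 members were lower after HTS-3 than after NTS-1, where 9.65% of all genes were called. Fas was 2.05-fold lower (95% interval of the log2 difference -1.66 to -0.41, adjusted p = 0.0280), Gsdmd 1.65-fold (-1.21 to -0.25, adjusted p = 0.0469) and Casp8 1.36-fold (-0.70 to -0.19, adjusted p = 0.0228). The calls of Fas and Casp8 each held in 14 of 19 alternatives and that of Gsdmd in 9. Leaving out NTS-1 mouse 1 or HTS-3 mouse 4 ended all 3 calls. Fitting the pair of groups alone also ended them (adjusted p = 0.0840 for Casp8, 0.348 for Fas and 0.122 for Gsdmd). Gsdmd alone lost its call with a replicate block (adjusted p = 0.0686), with each probe set on its own (0.0610) and with the RNA quality covariate (0.0644). Leaving out further mice ended the call without NTS-1 mouse 2 for Casp8 and Gsdmd, mouse 3 for Fas and Gsdmd and mouse 4 for Fas, and without HTS-3 mouse 1 for Casp8 and Gsdmd and mouse 2 for Gsdmd. Mlkl was 1.83-fold lower, with an adjusted p of 0.0549, and was called without NTS-1 mouse 1 (0.0377) or HTS-3 mouse 1 (0.0406). HTS-3 against TS-2 at 16 h gave no member call where 5.95% of all genes were called, and the interval for Fas ran from -1.18 to 0.17. Without HTS-3 mouse 3, Casp8 was called lower (adjusted p = 0.0463) and Tnfrsf1a higher (adjusted p = 0.0284).

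At 2 weeks Tnfrsf12a was 3.01-fold higher after TS-2 than after NTS-1 (95% interval of the log2 difference 0.75 to 2.43, adjusted p = 0.00986) and Casp8 1.58-fold (0.38 to 0.94, adjusted p = 0.00257), where 21% of all genes were called. For both genes every TS-2 mouse lay above every NTS-1 mouse, as for 10.5% of all genes. The Tnfrsf12a call was lost with a replicate block (adjusted p = 0.0783) and when the pair was fitted alone (adjusted p = 0.0848), and the Casp8 call held in all 20 alternatives. Fas, Tnfrsf1a and Gsdmd had log2 differences of 0.70, 0.53 and 0.55 with adjusted p of 0.0605, 0.0632 and 0.105. All 3 were called without TS-2 mouse 1 (adjusted p = 0.0430, 0.00831 and 0.00560), and Fas also without TS-2 mouse 3 (0.0199) or NTS-1 mouse 2 (0.0249). The remaining pairs, TS-2 against NTS-1 at 16 and 72 h and HTS-3 against NTS-1 and TS-2 at 8 h, gave no member call where 0.231%, 0.17%, 0.572% and 0.264% of all genes were called. At an unadjusted p under 0.05 limma had 0, 0, 2 and 1 members in them, and 3 for HTS-3 against TS-2 at 16 h.

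The change of an effect over time was tested as an interaction, and no member was called. For Mlkl the NTS-1 effect was lower at 16 h than at 8 h by a log2 difference of -1.83 (95% interval -2.76 to -0.89, adjusted p = 0.309) and at 72 h by -1.55 (adjusted p = 0.580), where 0.0715% and 0.203% of all genes were called. For HTS-3 the change from 8 to 16 h was -1.54 for Mlkl, -1.25 for Fas and -0.86 for Gsdmd, with adjusted p of 0.105, 0.299 and 0.394, where 1.32% of all genes were called. The 2 TS-2 interactions also gave no member call, where 0.011% and 0.044% of all genes were called. Between vehicle groups no member was called at 16 h against 8 h, 72 h against 8 h or 72 h against 16 h, where 0.934%, 0.901% and 0.0275% of all genes were called. At an unadjusted p under 0.05 these 3 comparisons held 1, 1 and 2 members, the NTS-1 interactions 2 and 1, the TS-2 ones 0 and 0 and the HTS-3 one 4. No tool other than limma was run.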

How the data were processed

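Per the submitters' processing notes, the authors computed intensities with RMA (version not given in the sources used here). Deposited intensities are linear, and they were converted to log2. Per the labels' protocols, total RNA was prepared with RNeasy Mini Plus and biotin-labelled in a single round. Array number, 3 to 10 mice per group, limits the precision. The mice are separate animals, and p-values measure the spread between these mice.

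Probe sets were named from the platform annotation: 34958 had 1 symbol, 932 several and 9211 none. A gene was represented by its probe set of highest mean. Genes were kept where 3 or more arrays held them at the array's 40th percentile or higher, which left out no gene of the single-dose set, since that percentile lies at the floor. The single-dose and 2-week arrays were fitted apart, each with 1 limma model over its groups (limma 3.58.1, R 4.3.3, empirical Bayes moderation), without covariates, and p-values were adjusted by Benjamini-Hochberg within each comparison.

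The members and lists were chosen with earlier results of these data known. Text names all members and, of each list and comparison, at most 4 called genes with the largest differences, plus the 5 genes most like a member. The calling step was tested on simulated data with 200 changed genes: for NTS-1 at 8 h, 56% of 2-fold and 92% of 4-fold changes were recovered, for HTS-3 at 16 h 59% and 95%, and for TS-2 at 2 weeks 93% and 100%.

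Alternatives were other filters, quantile normalization, array weights, each probe set on its own, the compared groups alone, a replicate block, an RNA quality covariate, other handling of HTS-3 mouse 3 of 8 h, split vehicle groups and leaving out each mouse. The labels do not say that equal replicate numbers mark shared animals or days. Over 18 comparisons the correlations of same-numbered mice ran from -0.50 to 0.47, so the numbers were not taken as pairs.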

Additional observations from a re-analysis of the deposited data

Results flagged for a closer look

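Of 57 groups of 4 to 10 mice tested for a single distant value, 2 held one, where chance gives about 1 in 20. Both concern Ripk3 at values near the floor and under 32. In the NTS-1 group of 16 h, mouse 1 had 5.14 and the others 4.56, so that its gap was the whole range of the group, a ratio of 1. In the TS-2 group of 72 h, mouse 3 had 4.84 and the others 4.56, again a ratio of 1. No difference of Ripk3 was drawn from these groups.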

How the results depend on the processing

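Among 1583 alternative values of the members' differences from vehicle, 1514 moved by no more than 1 SD of the replicates and 69 by more. A called direction was reversed in 0. Other filters, the compared groups alone and each probe set on its own cannot change a difference, only its adjusted p. Averaging probe sets changes nothing for a gene with 1 of them, nor does dropping the filter after a single dose. Part of the 1514, and of the tallies of alternatives given above, was thus fixed in advance. The 3 single-dose member calls against vehicle became 0 when each pair of groups was fitted alone. The 6 calls between gapmers became 12 with array weights and 1 with the compared groups alone. Pathway gene calls, counted here over the 6 pathway lists, the interferon-stimulated genes and the p53 targets together, numbered 74 against vehicle. They became 44 with the compared groups alone, which leaves fewer samples for the spread. Leaving out each mouse in turn gave 2 to 4 single-dose calls, 5 to 7 at 2 weeks, 3 to 9 between gapmers, 0 to 0 for vehicle over time and for effects over time, and 68 to 82 pathway gene calls. With the replicate number as a block the counts were 2 single-dose, 4 at 2 weeks, 4 between gapmers, 0 for vehicle over time, 0 for effects over time and 66 pathway genes. The member calls against vehicle and between gapmers that it ended are given with their results. Dim values limit Ripk3, Tnfrsf10b and single-dose Casp4, for which changes below 32 are uncertain.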

Other observations

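Equal values recur on the single-dose arrays. Mlkl had the intensity 114.52 on 6 and 117.03 on 4 of the 37 arrays, Gsdmd 497.62 on 4, Casp4 12.01 on 5 and 9.88 on 4, and the second Tnfrsf12a probe set 250.54 on 9. Of 13732 single-dose probe sets with a mean of 32 or more, 34.1% shared a value on at least 4 arrays, against 2.76% of 21835 on the 19 arrays of the 2-week study. The cause was not tested.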
